A study of Bos taurus with 12 samples.

Results

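CD24 encodes a small surface glycoprotein and was followed here as 1 of the 27270 genes measured in the bovine corpus luteum (CL) after prostaglandin F2α (PGF2α). It was chosen by its measured rise in the same libraries, from expected counts and TPM at 4 h and 12 h, so its own levels are given as a description, with no test. RNA of whole luteal tissue was sequenced from 12 mixed breed cows at day 10 of the luteal phase, 4 given saline by intramuscular injection (control) and 4 each ovariectomized 4 h or 12 h after a luteolytic intramuscular dose of PGF2α, the hormone that ends the life of the CL. The study describes its animals as non-lactating multiparous beef cows of composite breeding, and their exact age was not given in the sources used here. No cow carried a transgene or a deletion by the labels, and all 12 had their estrous cycles synchronized. A single library was made from the CL of each animal, giving 4 replicates in each group. The labels give no collection time for the saline cows, and no saline group is labelled 4 h or 12 h. Time after injection and PGF2α therefore cannot be told apart.

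The mature CD24 protein is a short, heavily O-glycosylated and sialylated peptide held in the outer membrane by a glycosylphosphatidylinositol (GPI) anchor. Having no cytoplasmic part, it signals through Src family kinases in membrane rafts. It binds P-selectin on endothelium and platelets, and on phagocytes it binds the inhibitory receptor SIGLEC10, through which it restrains responses to damaged cells and phagocytosis. B lymphocytes, neutrophils and many epithelia are known to carry it.

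The tables place CD24 at chr2:117785379-117787180 of the ARS-UCD1.2 build, with 1 transcript of 1802 bases. The span of the gene is also 1802 bases, so this model has no intron, a property shared by 2323 of the 27270 genes. DNER ends 14313 bases before it and TRIP12 starts 24216 bases after it. RefSeq, on the newer build ARS-UCD2.0, lists CD24 between MTRES1 and QRSL1, genes that the tables place on chromosome 9 with 0 other table genes between them. The annotations thus place CD24 at different sites. Whether there is a near-identical copy whose reads are counted on the chromosome 2 model was not tested, and gene totals could not show it. The levels of neighbouring genes did not follow those of CD24: mean TPM (a level scaled by transcript length and library total) in control, 4 h and 12 h tissue was 13.5, 10.7 and 10.8 for DNER and 18.3, 11.1 and 13.9 for MTRES1.

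CD24 transcripts were scarce in control CL. The 4 control cows had 0.47 TPM (cow4285), 0.44 TPM (cow6464), 0.50 TPM (cow7367) and 0.37 TPM (cow7514), a mean of 0.445 ± 0.0557 TPM (SD, n = 4). These levels rested on 5, 10, 10 and 9 expected counts, RSEM's estimates of the reads from a gene. The exact 95% Poisson interval of the lowest count, 5, was 1.62 to 11.7, and intervals of this kind cover counting error only. All 4 counts lay above the 3 counts taken as the floor, so CD24 was detected in every control cow at a level near the limit of the sequencing depth. By TPM it ranked between 14313 and 14932 of 27270 genes in these libraries.

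At 4 h post-PGF2α every cow lay above every control. The levels were 8.02 TPM (cow4291), 15.22 TPM (cow5341), 6.76 TPM (cow6455) and 7.71 TPM (cow6456), with expected counts of 190, 342, 133 and 125. Cow cow5341 stood apart, and the other 3 cows lay close to each other with a mean of 7.50 ± 0.657 TPM (SD, n = 3). The mean of all 4 cows was 9.43 ± 3.90 TPM, 21.2 times the control mean, or 16.8 times without cow5341. The lowest 4 h cow had 13.5 times the level of the highest control cow.

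Cow cow5341 was also the highest of the 4 h cows in many other genes that rose at that time. Of the 1253 genes that rose at 4 h by edgeR's quasi-likelihood test (Benjamini-Hochberg adjusted p under 0.05), 644 (51.4%) were highest in cow5341, 300 (23.9%) in cow6455, 249 (19.9%) in cow6456 and 60 (4.79%) in cow4291. The part that this cow-wide pattern has in the CD24 value of cow5341 was not tested. The coefficient of variation of CD24 at 4 h was 41.4%, against a median of 16.9% over the 4653 genes with a mean of 5 to 20 TPM in the same libraries.

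At 12 h post-PGF2α CD24 was an abundant transcript in all 4 cows. The levels were 110.76 TPM (cow5266), 101.94 TPM (cow6314), 91.09 TPM (cow7382) and 116.74 TPM (cow7475), with expected counts of 2321, 2100, 1704 and 1816. Their mean was 105 ± 11.2 TPM (SD, n = 4), 236 times the control mean and 11.2 times the 4 h mean. The groups did not overlap, since the lowest 12 h cow had 182 times the level of the highest control cow and 5.98 times that of the highest 4 h cow. The cows were alike at this time, with a coefficient of variation of 10.6% against a median of 12.6% over the 1728 genes with a mean of 50 to 200 TPM. Because the samples are whole tissue, more cells that express CD24 and more CD24 RNA per cell cannot be told apart in these levels.

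The rank of CD24 among all genes moved with its level. By mean TPM it was 14796th in control tissue, 8671st at 4 h and 1159th at 12 h, so that 45.7%, 68.2% and 95.7% of the 27270 genes lay below it. The 12 h ranks in single cows were between 1007 and 1313, and those at 4 h between 6908 and 9374. The plot of CD24 by cow shows the separate levels and ranks of the 3 groups.

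**Figure D1:**
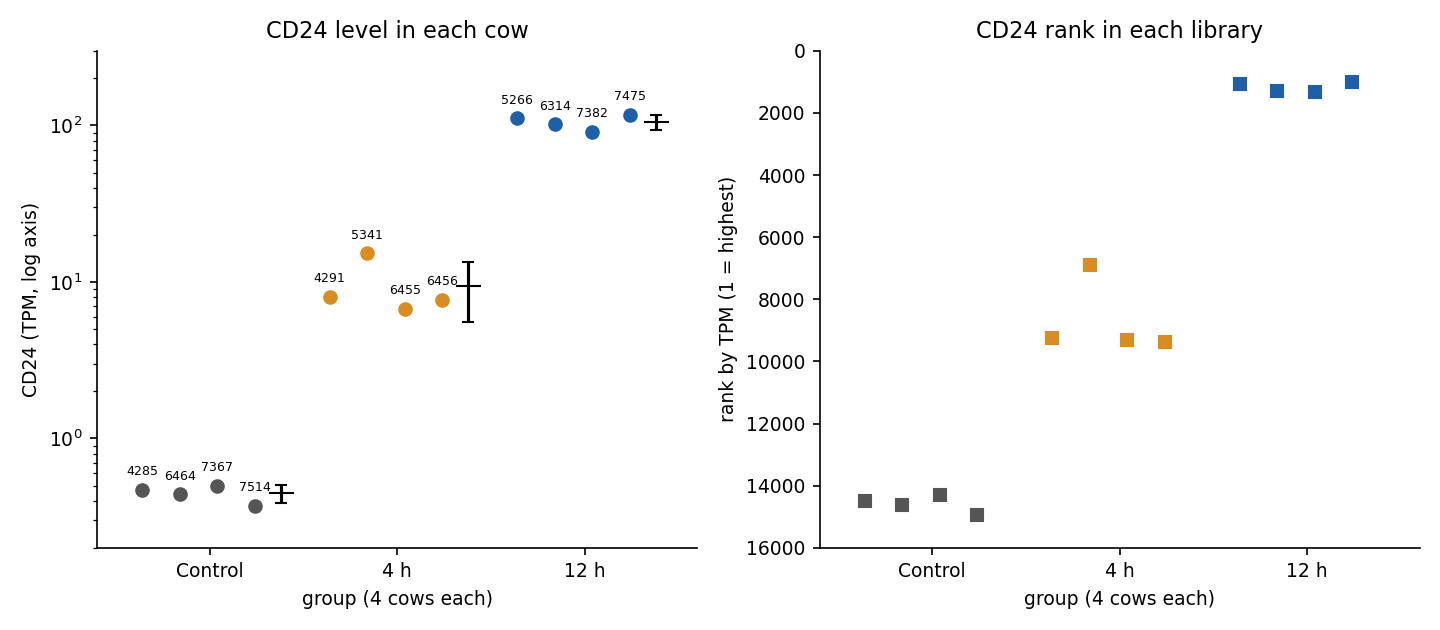
CD24 level in TPM on a log axis (left, cow numbers above the points, with the group mean and SD at the right of each group) and its rank by TPM among 27270 genes with rank 1 at the top (right), for the 4 cows of each group. The control cows sit between 0.37 and 0.50 TPM, the 4 h cows between 6.76 and 15.22 TPM and the 12 h cows between 91.09 and 116.74 TPM, with no overlap between groups.

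The size of the rise was set beside all genes in 1 fit of the 3 groups, in which 14481 genes passed the count minimum. Fitted log2 fold changes of CD24 in TMM-scaled counts were 4.43 (SE 0.31) at 4 h and 8.19 (SE 0.32) at 12 h against control, and 3.76 (SE 0.23) between 12 h and 4 h. These were the 44th, 4th and 13th largest of 14481, beside medians over all genes of -0.03, 0.01 and 0.02. The other genes with larger fitted values at 12 h were IGFBP1, MEPE and 1 gene without a symbol, and IGFBP1 and MEPE were nearly absent from controls, with means of 0.01 and 0.04 TPM. On the log2(TPM + 1) scale the CD24 change at 12 h was smaller, 6.19, and the median of all genes was -0.25.

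Few genes went from so low to so high a level. Of the 13676 genes with a control mean under 1 TPM, 10 reached a mean of at least 10 TPM at 12 h and 1, CD24, reached at least 50 TPM. These limits were chosen after the values had been seen, and describe the place of CD24 in the plot of control against 12 h levels. SERPINA14, a serpin secreted by the uterus under progesterone, and GAL, which encodes the neuropeptide galanin, rose from higher control levels. SERPINA14 had 4.08 ± 2.44 TPM in controls and 471 ± 39.2 TPM at 12 h, and GAL had 1.44 ± 0.323 and 204 ± 75.6 TPM (SD, n = 4).

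**Figure D2:**
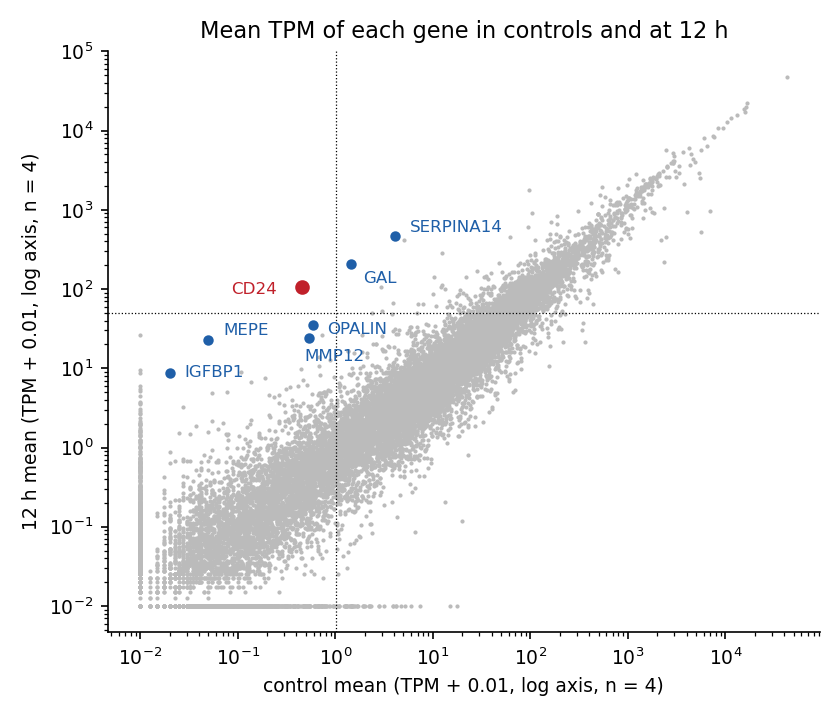
Mean TPM of each of 27270 genes in 4 control cows (x) and 4 cows at 12 h (y), both on log axes with a small constant added, and dotted lines at 1 TPM in controls and 50 TPM at 12 h. CD24, at 0.445 and 105 TPM, is the only gene in the upper left field.

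The larger part of the CD24 level was gained between 4 h and 12 h. Mean log2 CPM (library-scaled counts, prior count 2) lay 4.06 above control at 4 h and 7.88 above it at 12 h, so that 0.516 of the log2 shift was present at 4 h. On the linear scale the 4 h mean was 8.97% of the 12 h mean. Among the 169 other genes with a log2 shift of at least 2 and a mean of at least 5 CPM at 12 h, the median share present at 4 h was 0.549, with quartiles of 0.311 and 0.874, and 78 genes had a smaller share than CD24. CD24 was therefore near the middle of the strong risers in its timing on the log2 scale. Of the 29 genes with a control mean under 1 TPM and at least 5 TPM at 4 h, 4, CD24 among them, were higher at 12 h than at 4 h.

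Genes with the most similar profile were found by the root mean square (RMS) difference from CD24 over the 12 libraries, in log2 CPM minus the control mean, among 13159 genes with a symbol. In order they were SERPINA14 (RMS 1.004 log2 units), IGFBP1 (1.08), MEPE (1.27), MMP12 (1.41), NEFM (1.48), GAL (1.56), CTLA4 (1.65), OPALIN (1.66), IL33 (1.67) and MMP1 (1.76). They hold a secreted serpin, an insulin-like growth factor binding protein, a bone matrix phosphoprotein, macrophage elastase and interstitial collagenase, a neurofilament, galanin, an inhibitory T cell receptor, a myelin membrane protein and an alarmin cytokine. The nearest, SERPINA14, had 8.59, 64.35, 26.39 and 46.33 TPM at 4 h in cow4291, cow5341, cow6455 and cow6456, and 414.67 to 498.7 TPM at 12 h. Its highest 4 h level was in the same cow as that of CD24, which the choice by profile over the same libraries favours. Of the 169 genes with a log2 shift of at least 2 and a mean of at least 5 CPM at 12 h, 74 (43.8%) were highest in cow5341 at 4 h.

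The timing differed within this set. OPALIN had 0.270 of its 12 h log2 shift at 4 h and SERPINA14 0.407, below the 0.516 of CD24. GAL had 0.909, and CTLA4 and IL33 had shares of 1.005 each. When each profile was divided by its own 12 h shift, which leaves the shape and removes the size, the nearest of 153 genes were GADD45A (RMS 0.0793), a growth arrest gene, TMOD1 (0.0802), which caps actin filaments, and TCIM (0.0906). They were followed by ORMDL3, TGIF1, CRABP2, SERPINA14, SPP1, SLAIN1 and SRD5A1. SERPINA14 alone was among the 10 nearest by both measures.

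The binding partners of CD24 changed little or modestly beside it. SIGLEC10, the inhibitory phagocyte receptor, had 14.18, 18.88, 11.80 and 9.25 TPM in control cows, 11.13 to 19.93 TPM at 4 h and 14.63, 9.32, 13.16 and 11.78 TPM at 12 h. The 3 ranges overlapped. Its log2 fold change was 0.12 (SE 0.25) at 4 h and 0.19 (SE 0.25) at 12 h, with edgeR adjusted p values of 0.797 and 0.551, and its sign at 12 h turned on the TPM scale (-0.11). Control means of 13.5 TPM for SIGLEC10 and 0.445 TPM for CD24 became 12.2 and 105 TPM at 12 h, so the receptor was the higher of the pair in controls and CD24 at 12 h.

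SELP, which encodes P-selectin, rose. It had 2.54 to 7.87 TPM in controls, 6.01 to 12.98 TPM at 4 h and 8.35 to 11.93 TPM at 12 h, with 1 control cow, cow4285, within the 4 h range and all below the 12 h range. Its log2 fold change was 1.12 (SE 0.33, edgeR adjusted p = 0.0426) at 4 h and 1.64 (SE 0.34, adjusted p = 0.00169) at 12 h. The call at 4 h was lost on leaving out any 1 cow other than cow4285, cow5341 and cow6314 (9 cows, edgeR adjusted p = 0.0544 to 0.114). CD44, the hyaluronan receptor found with CD24 in membrane rafts, had 16.95 to 45.95 TPM in controls and 35.53 to 64.16 TPM at 12 h, which overlapped, and rose by 1.11 on the log2 scale at 12 h (SE 0.29, edgeR adjusted p = 0.00793).

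The signalling partners of CD24 gave the clearest changes of this list. Of 18 tested receptors and partners, 6 rose and 1 fell at 4 h, when 8.65% of all genes rose and 5.59% fell, and 7 rose and 1 fell at 12 h, when 23.6% rose and 25.3% fell. The median log2 fold change was 0.19 at 4 h and 0.18 at 12 h, beside -0.03 and 0.01 for all genes. The Src family kinases FYN and FGR rose at both times. FYN, at 26.20 to 38.28 TPM in controls, was at 48.55 to 68.84 TPM at 4 h and 43.28 to 49.69 TPM at 12 h, above all controls, and its log2 fold changes were 0.94 (edgeR adjusted p = 0.000311) and 0.82 (adjusted p = 0.000139).

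FGR, a kinase of myeloid cells, rose by 1.296 on the log2 scale at 4 h and by 0.77 at 12 h (edgeR adjusted p = 0.000901 and 0.00479). YES1 rose at 4 h (log2 fold change 0.61, edgeR adjusted p = 0.00174). LCK, the kinase of T lymphocytes, fell by 1.14 on the log2 scale at 4 h (edgeR adjusted p = 0.0234) and was named after its value had been seen. That call was lost without cow6464, cow5341, cow6455 or cow6456 (edgeR adjusted p = 0.0506 to 0.0770).

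The phosphatases that act below SIGLEC10 moved in opposite directions at 12 h. PTPN6, the SHP-1 phosphatase of blood cells, rose by 0.81 on the log2 scale (edgeR adjusted p = 0.00218). PTPN11, the SHP-2 phosphatase found in most cells, fell by 1.85 (SE 0.19, edgeR adjusted p = 1.81e-05). Its levels were 38 to 50.03 TPM in controls, 26.65 to 52.62 TPM at 4 h and 7.54 to 12.96 TPM at 12 h, so all 12 h cows lay below all others.

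Enzymes of mucin-type O-glycosylation and sialylation build most of the mass of CD24. Of 36 tested, 7 rose and 1 fell at 4 h, and 5 rose and 11 fell at 12 h, beside 8.65% and 5.59% of all genes at 4 h and 23.6% and 25.3% at 12 h. Median log2 fold changes were -0.02 and 0.04. The rises at 4 h were 4 without cow4291 and those at 12 h 8 without cow6314. At 4 h the core 2 branching enzyme GCNT4 rose by 2.61 on the log2 scale, the galactosyltransferase B4GALT5 by 1.22 and GNE, the first enzyme of sialic acid synthesis, by 0.72 (edgeR adjusted p = 4.46e-05, 0.00575 and 0.000965). GCNT4 remained 1.18 above control at 12 h (edgeR adjusted p = 0.00148).

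At 12 h GALNT10, which starts O-glycan chains, fell from 28.5 ± 1.54 TPM in controls to 4.30 ± 0.280 TPM (SD, n = 4; log2 fold change -2.42, edgeR adjusted p = 4.73e-06). ST3GAL1, which caps core 1 chains with sialic acid, had 19.13 to 51.86 TPM in controls and 5.15 to 6.73 TPM at 12 h (log2 fold change -2.17, edgeR adjusted p = 5.59e-05). CMAS, which activates sialic acid, fell by 0.69 on the log2 scale (edgeR adjusted p = 0.000129). GALNT6 went the other way at a low level and rose by 1.93, from 0.973 ± 0.470 TPM in controls to 3.05 ± 0.305 TPM (SD, n = 4; edgeR adjusted p = 0.00013). GALNT10 and GALNT6, which both start chains, thus changed in opposite directions from unlike levels while CD24 transcripts were at their highest.

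Of 29 tested genes that assemble the GPI anchor, 1 rose and 1 fell at 4 h, when 8.65% and 5.59% of all genes did. At 12 h 4 rose and 7 fell, when 23.6% and 25.3% of all genes did. The falls at 4 h were 0 without cow6464, cow7367, cow7514, cow5341 or cow6456, and 2 with DESeq2. Without cow6314 the rises at 12 h were 7, and with limma on log2(TPM + 1) 0 rose and 17 fell, where the tests of edgeR at an unadjusted p under 0.05 gave 5 and 9. PIGA, the catalytic subunit of the first step, was higher than control at 4 h (log2 fold change 0.74, edgeR adjusted p = 0.0231) and lower at 12 h (-0.87, edgeR adjusted p = 0.00341). Its call at 4 h was lost without cow7514, cow5341 or cow6456 (edgeR adjusted p = 0.0510 to 0.0625). PIGH, of the same complex, fell by 0.70 on the log2 scale at 12 h and PIGG, which modifies the finished anchor, by 1.66, while PIGB, a mannosyltransferase, rose by 0.62 (edgeR adjusted p = 0.00281, 4.03e-05 and 0.000579).

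The 3 sets together held 83 tested genes, of which 14 (16.9%) rose and 3 fell at 4 h, and 16 (19.3%) rose and 19 fell at 12 h. Of all genes, 8.65% rose and 5.59% fell at 4 h, and 23.6% rose and 25.3% fell at 12 h. Between 4 h and 12 h 17 (20.5%) rose and 26 fell, beside 22.5% and 24.3% of all genes. Without cow7514 the first count was 9, and without cow6464, cow5341 or cow6456 a single gene fell at 4 h. With limma on log2(TPM + 1), 8 rose and 35 fell at 12 h, a scale on which 1509 of all genes rose and 5631 fell against 3417 and 3665 in the main scaling. More of the set fell than rose at 12 h on both scales, as among all genes, and CD24 rose on both.

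**Figure D3:**
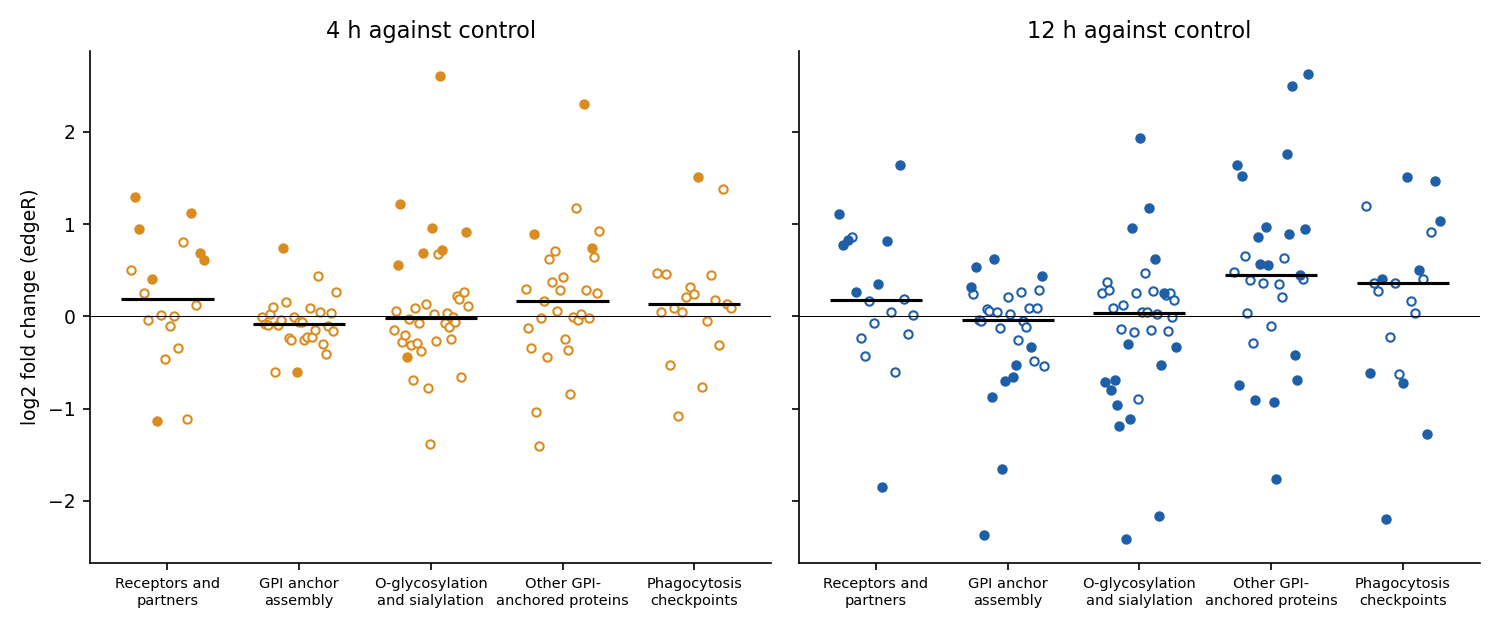
edgeR log2 fold change of each tested gene (1 circle per gene) in 5 gene lists around CD24 at 4 h (left) and 12 h (right) against control, 4 cows per group, with filled circles for adjusted p under 0.05 and bars at list medians. All medians lie between -0.09 and 0.45, and CD24 itself, at 4.43 and 8.19, is outside the plotted range and not shown.

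Of 29 tested proteins held by the same anchor, 3 (10.3%) rose at 4 h, near the 8.65% of all genes, and 12 (41.4%) rose and 6 fell at 12 h, beside 23.6% and 25.3%. Median log2 fold changes were 0.17 and 0.45. The 4 h count was 6 without cow6455, and with limma on log2(TPM + 1) 6 rose and 7 fell at 12 h. PLAUR, the urokinase receptor, had 47.4 ± 20.8 TPM in controls, 225 ± 53.4 TPM at 4 h and 212 ± 27.7 TPM at 12 h (SD, n = 4), and rose by 2.30 and 2.49 on the log2 scale (edgeR adjusted p = 0.000295 and 3.25e-05). VNN1, a pantetheinase, rose by 2.63 and CD14, the monocyte receptor for lipopolysaccharide, by 1.52 at 12 h (edgeR adjusted p = 0.00107 and 0.000254). In timing PLAUR was unlike CD24, with overlapping levels at 4 h and 12 h.

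Of 19 other genes that control phagocytosis, 1 rose at 4 h, beside 8.65% of all genes. At 12 h 5 (26.3%) rose and 4 fell, near the 23.6% and 25.3% of all genes. The 4 h count was 2 without cow4285 or cow6464, and 2 fell at 12 h without cow7367. MERTK, a receptor for dying cells, rose by 1.51 on the log2 scale at 4 h and by 1.52 at 12 h (edgeR adjusted p = 0.00445 and 0.000854). TYRO3, of the same family, rose by 1.03 at 12 h (edgeR adjusted p = 0.000366). CD274, which encodes the inhibitory ligand PD-L1, fell by 2.20 at 12 h, from 4.82 ± 3.52 to 0.868 ± 0.318 TPM (SD, n = 4; edgeR adjusted p = 0.00327).

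CD24 was then set beside the leukocytes that carry it. Of 10 tested neutrophil markers 6 (60.0%) rose at 12 h, beside 23.6% of all genes, with a median log2 fold change of 1.07, and 2 rose without cow7382. Their summed level was 29.1 to 64.0 TPM in controls, 58.3 to 164.5 TPM at 4 h and 109 to 279 TPM at 12 h. The 12 h sum was 3.82 times the control sum, and most of the gain was that of S100A12 and S100A9. Mean TPM in controls and at 12 h was 48.1 and 184 for the sum, 12.0 and 105 for S100A12 and 4.09 and 31.1 for S100A9. Of the 11 markers in the sum, 5 had a 12 h mean under 1 TPM. S100A12, of the S100 calcium-binding proteins, rose by 3.42 on the log2 scale at 12 h and S100A9 by 2.73 at 4 h and 3.21 at 12 h (edgeR adjusted p = 0.000373, 0.00505 and 0.00038).

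B lymphocyte markers were low in every group. Of 14 markers 8 were tested, of which 2 rose and 0 fell at 12 h, beside 23.6% and 25.3% of all genes. The median log2 fold change at 12 h was 0.97. A single marker rose at 12 h without cow7382 or any 1 of the 4 controls, and 0 rose with limma on log2(TPM + 1). Summed levels were 13.7 to 48.4 TPM in controls, 14.9 to 34.2 TPM at 4 h and 22.4 to 73.9 TPM at 12 h, ranges that overlapped. MS4A1, which encodes CD20, had 0.43, 0.59, 13.83 and 1.15 TPM at 12 h in cow5266, cow6314, cow7382 and cow7475, against 0.61 to 0.90 TPM in controls, so 1 cow carried its log2 fold change of 2.78 (edgeR adjusted p = 0.0331). Without cow7382 it was 0.26 (edgeR adjusted p = 0.704), and the call was also lost without any 1 of the 4 controls (adjusted p of at least 0.0539).

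Macrophage and monocyte markers rose at 12 h in 9 of 12 genes (75%, beside 23.6% of all genes), with a median log2 fold change of 1.15, and summed to 205 to 562 TPM in controls and 501 to 803 TPM at 12 h. TYROBP, a signalling adaptor of myeloid cells, rose by 1.84 on the log2 scale at 12 h (edgeR adjusted p = 0.000333). Of 12 T and NK lymphocyte markers 2 (16.7%) rose at 12 h, below the 23.6% of all genes, and the median log2 fold change of the list was -0.36. The 2 were GZMA, by 4.40, and NKG7, by 1.27 (edgeR adjusted p = 0.000157 and 0.00297), both genes of cytotoxic granules. At 4 h, of 50 tested markers of all leukocyte lists, 2 rose and 1 fell, beside 8.65% and 5.59% of all genes. The rises were 1 without cow4285, cow7367, cow5341 or cow6456, and the falls 0 to 5 on leaving out 1 cow (5 without cow7367) and 6 with DESeq2. The summed level at 4 h was 0.989 times that of controls over all leukocyte lists, 2.001 times for neutrophils and 0.543 times for T and NK lymphocytes.

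The epithelial sum was highest at 4 h, before CD24 reached its highest level, and the keratins KRT8 and KRT18 made up most of it. Mean TPM in control, 4 h and 12 h tissue was 103, 261 and 128 for KRT8 and 14.2, 272 and 49.0 for KRT18. The means of the whole sum were 123, 551 and 191 TPM, so its timing is mainly that of these keratins. Of 6 tested, 3 rose at 4 h and 3 at 12 h (50% each, beside 8.65% and 23.6% of all genes), and the sum of all 14 was 81.2 to 154 TPM in controls, 387 to 749 TPM at 4 h and 101 to 347 TPM at 12 h. KRT18, a keratin, rose by 4.30 on the log2 scale at 4 h and by 2.14 at 12 h, and CDH1, the epithelial cadherin, by 1.99 and 1.84 (edgeR adjusted p = 0.000206, 0.00212, 0.000993 and 0.000329). EPCAM, the defining surface marker, was counted among the 3 rises at 12 h, and the 12 h share of 50% includes it. Its levels were 0 to 0.32 TPM in controls, 0.12 to 0.57 TPM at 4 h and 0.07 to 0.9 TPM at 12 h. With 0 to 3 counts per control, it met the count minimum only through cows given PGF2α. The filter thus favours its call, which is not read as a rise, and no fold or p is given. GRHL2 was listed at 0 in all 12 cows. Of 14 epithelial markers 10 had a 12 h mean under 1 TPM.

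Steroidogenic genes mostly fell at 12 h. Of 12, 9 fell and 1 rose, when 25.3% and 23.6% of all genes did, with a median log2 fold change of -1.10, and their sum went from 21333 to 31301 TPM in controls to 20147 to 24130 TPM at 4 h and 5573 to 11152 TPM at 12 h. STAR, which delivers cholesterol to the inner mitochondrial membrane, fell by 2.49, HSD3B1, which makes progesterone, by 3.15 and the nuclear receptor gene NR5A2 by 2.69 on the log2 scale (edgeR adjusted p = 0.000213, 5.56e-06 and 7.98e-06). NR5A2 was already 1.68 lower at 4 h (edgeR adjusted p = 0.000468). The 5 large luteal cell genes differed among themselves, with 2 that rose and 1 that fell at 12 h, beside 23.6% and 25.3% of all genes. Their median log2 fold change was 0.67, and their sums overlapped, at 11075 to 19557 TPM in controls and 10062 to 19250 TPM at 12 h. PTGFR, the receptor for PGF2α on large luteal cells, fell by 1.17 at 4 h and 3.13 at 12 h, and INHBA rose by 4.51 and 3.55 (edgeR adjusted p = 0.00723, 6.79e-06, 7.64e-05 and 5.63e-05).

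Whether CD24 tracked leukocyte or luteal genes from cow to cow was not tested, and no correlation was computed over the 3 separate groups of 4 cows. At 12 h CD24 fell in the order cow7475, cow5266, cow6314, cow7382, the neutrophil sum in the order cow7382, cow7475, cow5266, cow6314, the macrophage sum in the order cow6314, cow7382, cow7475, cow5266 and the steroidogenic sum in the order cow7382, cow5266, cow7475, cow6314. The large luteal cell sum had the order cow5266, cow7475, cow7382, cow6314. The dendritic and the granulosa and theca sums had cow7475, cow5266, cow7382, cow6314, and the T and NK sum was also highest in cow7475. None of the summed lists had the CD24 order at 12 h. At 4 h CD24 and the large luteal cell, dendritic and O-glycosylation sums shared the order cow5341, cow4291, cow6456, cow6455. The O-glycosylation sum was nearly tied between cow4291 and cow6456, at 1909.89 and 1908.93 TPM. PTGFR and INHBA, of the large luteal cell list, each had another order. With 4 cows and many lists, an order can be shared by chance. Of 8 dendritic markers 1 rose and 1 fell at 12 h, beside 23.6% and 25.3% of all genes. The neutrophil, macrophage, B lymphocyte and T and NK sums were highest at 4 h in cow6456, and the steroidogenic sum in cow4291. The part that a change in cell types has in the CD24 rise was not tested.

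**Figure D4:**
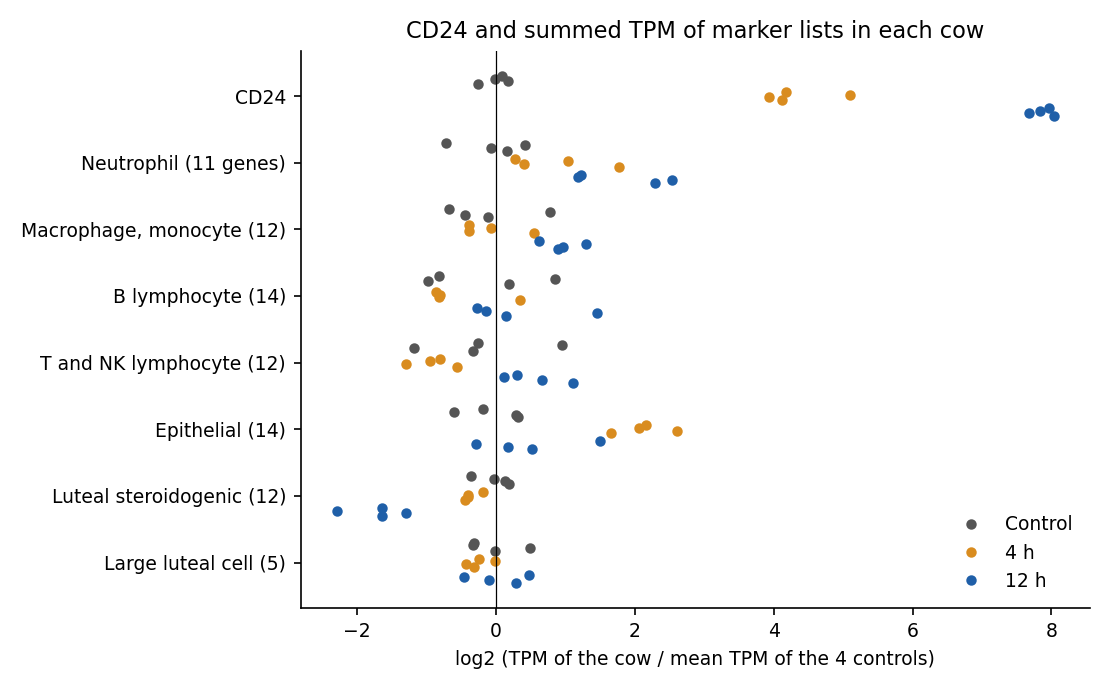
log2 ratio of each cow's TPM to the mean TPM of the 4 controls, for CD24 and for summed marker lists (number of genes in brackets), with 1 point per cow coloured by group. CD24 lies far to the right of every list at 12 h, where the neutrophil sum is 3.82 times and the steroidogenic sum 0.313 times its control mean. Most of the neutrophil gain is that of S100A12 and S100A9.

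Total expected counts per library were between 10263310 and 22600213, so 1 count of CD24 in the shallowest control is a large step. Cows cow6455 at 4 h and cow6314 at 12 h were the farthest from their groups over all genes, at RMS differences of 0.569 and 0.562 log2 CPM against 0.407 to 0.468 and 0.432 to 0.450 for the others. In CD24 neither stood apart, at 6.76 and 101.94 TPM.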

How the data were processed

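CL RNA of 12 cows was analysed from 1 table per cow. The deposited tables hold, per the file headers, an expected count, a TPM and an FPKM value for each of 27270 genes, which the authors made with RSEM 1.3 and STAR 2.5 on ARS-UCD1.2, as named in the submitters' processing notes. RSEM divides reads that map to several genes between them by estimate, so a gene with a near-identical copy may lose or gain reads. Whether counting used strand is not given in the sources used here. Total counts were 10263310 to 22600213 per cow.

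Expected counts were rounded. The 14481 genes that reached 10 counts in 4 or more libraries were scaled by TMM and fitted in 1 model of the 3 groups with edgeR 4.0.16 (quasi-likelihood). P values were Benjamini-Hochberg adjusted over all genes of each comparison, with a threshold of 0.05. SE is the log2 fold change divided by the root of F. TPM ratios are ratios of group means. A 4-cow group was searched for a cow apart by Dixon's ratio (critical value 0.829). CD24 and the lists were chosen with earlier results of these data known. Names came from a rule: binding partners, SERPINA14, GAL, the 10 nearest profiles by each measure, the first 3 genes of each cell type list, and up to 4 genes at 12 h and 3 at 4 h with the smallest p in each list. Not all that the rule names are described.

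Alternatives were DESeq2 1.42.0, RLE scaling, no count minimum, a minimum of 50, only the 2 groups compared, limma 3.58.1 on log2(TPM + 1) and log2(TPM + 0.1), each cow left out, and FPKM, TMM-scaled CPM or medians for ratios. Leaving out cow6455 and cow6314 together was chosen after seeing the data. The fits were tested on simulated data. Software was matplotlib 3.10.9, scipy 1.17.1, numpy 2.4.6 and pandas 2.3.3 under Python 3.11.15, with R 4.3.3. A CD24 sequence is not used here.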

Additional observations from a re-analysis of the deposited data

Results flagged for a closer look

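In 19 of 198 groups of 4 cows the highest or lowest cow stood apart from the others by Dixon's ratio, where chance gives about 1 in 20. CD24 at 4 h was one of them, with 15.22 TPM in cow5341 against 8.02 TPM in the next cow. Among genes near CD24 in function, the cow apart had 21.25 TPM of PTPN6 in controls, 38.5 TPM (4 h) and 5.15 TPM (12 h) of ST3GAL1, 46.08 TPM of CMAS at 12 h, and 5.76 TPM (control) and 13.31 TPM (4 h) of VNN1. Among markers and similar profiles it had 13.83 TPM of MS4A1 at 12 h, 0.12 TPM of EPCAM at 4 h, and 7.72 TPM of SERPINA14, 1.92 TPM of GAL and 0.04 TPM of IGFBP1 in controls. Among summed lists it had 1369 TPM of receptors and partners at 4 h, 1357 TPM of other GPI-anchored proteins at 12 h, 34.16 TPM (4 h) and 73.9 TPM (12 h) of B lymphocyte markers, 4.7 TPM of erythrocyte markers in controls, 24130 TPM of steroidogenic genes at 4 h and 945.0 TPM of endothelial markers at 12 h.

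Of 39 genes given above with a fitted change, 27 differed between 12 h and 4 h by the test of that difference (edgeR adjusted p = 1.22e-05 to 0.0466). In the log2 fold change of 12 h against 4 h, the partners of CD24 gave 1.16 for PTPN6, -0.52 for FGR, -0.60 for YES1 and -1.85 for PTPN11. Glycosylation enzymes gave 0.98 for GALNT6, -0.25 for CMAS, -0.87 for GNE, -0.94 for B4GALT5, -1.43 for GCNT4, -1.92 for ST3GAL1 and -2.13 for GALNT10. Anchor assembly genes gave 0.46 for PIGB, -1.61 for PIGA and -1.65 for PIGG, and other anchored proteins and phagocytosis genes gave 0.62 for CD14, 0.94 for TYRO3 and 1.70 for VNN1. Leukocyte markers gave 1.77 for NKG7, 1.96 for TYROBP, 2.68 for MS4A1, 2.83 for S100A12 and 4.86 for GZMA. KRT18 gave -2.16, and luteal genes gave -1.01 for NR5A2, -1.79 for STAR, -1.95 for PTGFR and -2.37 for HSD3B1. In 3 genes, YES1, GNE and PIGA, all 4 h cows were above and all 12 h cows below the controls in TPM, a scale on which the median of all genes was -0.25 (log2) at 12 h. The fitted 12 h change of YES1 was 0.01 (edgeR adjusted p = 0.933) and that of GNE -0.15 (adjusted p = 0.256).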

How the results depend on the processing

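CD24 lay above control, and at 12 h above 4 h, under every alternative run. Its log2 fold change was 2.79 at 4 h and 6.19 at 12 h with limma on log2(TPM + 1) and 7.59 at 12 h on log2(TPM + 0.1), and leaving out 1 cow gave 4.11 to 4.54 at 4 h, 8.10 to 8.30 at 12 h and 3.65 to 4.12 between them. The 12 h to control ratio was 271 in FPKM and 294 in TMM CPM, and the 12 h to 4 h ratio 13.1, 13.6 and, by medians, 13.5. Leaving out cow5341 gave 14.02.

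Of all genes, 524 fell at 4 h when only the 2 groups were fitted, and 374 to 797 on leaving out 1 cow (466, 374, 377 and 457 without cow7367, cow7514, cow5341 and cow6456). With limma on log2(TPM + 1) and log2(TPM + 0.1), 1509 and 1543 rose and 5631 and 5666 fell at 12 h, and 1304 and 1298 rose between 4 h and 12 h. CD24 pathway genes that rose at 12 h were then 8 and 9 and those that fell 35 and 35, and with DESeq2 5 fell at 4 h. Leaving out 1 cow gave 9 to 14 risers and 1 to 4 fallers at 4 h. Leukocyte markers that rose at 4 h were 1 with only 2 groups and with limma on log2(TPM + 1), and 1 to 2 on leaving out 1 cow. Those that fell at 4 h were 6 with DESeq2, 0 with no count minimum, with only 2 groups and in both limma fits, and 0 to 5 on leaving out 1 cow (5 without cow7367, 2 without cow6314). At an unadjusted p under 0.05, edgeR gave 10 of 50, beside 14.5% of all genes, and 3 without cow6464 and 6 without cow6455. Those that fell at 12 h were 3 with DESeq2, 2 and 2 in the limma fits and 1 to 3 on leaving out 1 cow. SIGLEC10 was -0.11 and -0.12 at 12 h in the limma fits and -0.038 to 0.36 at 4 h on leaving out 1 cow. MS4A1 at 12 h was past the threshold neither with only 2 groups nor with limma, and SELP at 4 h neither with only 2 groups nor without cow6455 and cow6314 together. The nearest 10 genes shared 1 with those of scaled profiles and 5 with those on log2(TPM + 1). The cause of these changes was not tested. No paired analysis was possible because the labels number cows and no number is shared between groups.

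Depth limits the control level of CD24, at 5 to 10 counts per cow, and the ratios to control carry that error.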

Other observations

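The summed level of T and NK lymphocyte markers was 30.7 to 135 TPM in controls, 28.5 to 47.3 TPM at 4 h and 75.8 to 151 TPM at 12 h. GZMA alone gained more than the whole sum. Its mean was 3.03 TPM in controls and 52.1 TPM at 12 h, beside 69.9 and 106 TPM for the sum. The control range rested on cow6464, and the other controls were at 30.7 to 58.1 TPM. Of 12 markers 1 fell at 4 h, beside 5.59% of all genes, a count of 0 to 5 on leaving out 1 cow and 4 with DESeq2.

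Genes of the granulosa and theca lineage, from which luteal cells arise, had a summed level of 4150 to 5308 TPM in controls, 3814 to 8512 TPM at 4 h and 630 to 3053 TPM at 12 h, where 3 of 8 fell and 1 rose, beside 25.3% and 23.6% of all genes. Fibroblast and pericyte markers summed to 7104 to 21788 TPM in controls and 7029 to 23066 TPM at 12 h, and 3 of 12 rose (25%, near the share of all genes), a count that was 6 without cow4285, 1 without cow6314 and 0 without cow7367 or cow7514, where edgeR gave 3 at an unadjusted p under 0.05 with all cows. Markers of endothelium, which bears P-selectin, summed to 545 to 839 TPM in controls and 464 to 945 TPM at 12 h. Of 12, 1 fell and 3 rose at 12 h, beside 25.3% and 23.6% of all genes. The rises were 1 without cow6464, cow7367, cow7514, cow5266 or cow6314. The only erythrocyte marker tested, HBA, rose by 2.21 on the log2 scale at 12 h (edgeR adjusted p = 0.00353), and with a minimum of 50 counts 0 were called. The 7 erythrocyte markers were low, with sums of 2.73 to 4.7 TPM in controls and 3.25 to 12.5 TPM at 12 h. These ranges overlapped, and the highest sum was in cow5266.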
